A study of Mus musculus with 5 samples.

Results

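Immediate early genes are switched on within minutes of a stimulus by transcription factors that are already present, without new protein synthesis. The 10 genes described here were Fos, Fosb, Jun, Junb, Egr1, Ier2, Ier3, Dusp1, Myc and Ccn1, out of 17016 gene symbols on the array. They were taken as every probe whose RefSeq accession pairs with these symbols, which gave 14 probes, with 3 for Myc, 2 each for Junb and Ier2 and 1 for each other gene. FOS and JUN proteins pair as AP-1, EGR1 is a zinc-finger transcription factor, and MAP kinase signalling through the serum response factor and its ternary complex partners is the classic input to these promoters. In liver this programme is known for its rapid, short-lived induction by injury, partial hepatectomy and inflammatory signals.

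Liver RNA of 5 samples from male C57BL/6N mice was labelled with Cy5. Ethanol was given in the diet over 8 weeks, followed by 3 binges of 5 g per kg each, and the samples, called livers 1 to 5, form 1 group. Each was hybridised against a purchased assorted mouse RNA in Cy3, whose tissue the labels give as liver and strain as C57BL/6N. No array had the dyes exchanged, and other diet groups were not analysed here. A log2 ratio below is therefore liver over that RNA and not ethanol over a control diet. The labels do not state that the samples are separate animals or when they were taken after the last binge, so the p-values reflect variation among these arrays alone, part of which may be technical. These are bulk samples, in which fewer cells of a type and less RNA per cell cannot be told apart.

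The 5 arrays lay on 5 slides. The median background-subtracted signal of an array ran from 72.7 to 161 for liver and from 69.3 to 138 for the reference, so raw signals are not comparable between arrays without normalization. The number of arrays limits the precision. For the tissue label, 5 of the 6 tested hepatocyte markers were well above background in every liver, and the list's median signal was 88624 in the liver channel and 63603 in the reference, itself labelled as liver. Signals of different probes are not compared.

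Relative to the reference RNA, Dusp1 and Ccn1 stood lower, Myc stood lower on 2 of its 3 probes, and Egr1, Ier2 and 1 of the Junb probes were on average near the reference but far apart between livers. In the same ratios, markers of Kupffer cells (-0.49 to -0.13), sinusoidal endothelium (-0.42 to -0.18), stellate cells (-0.50 to -0.11, 1 of 6 called lower) and red blood cells (-1.22 to -0.41) were on average below the reference in every liver. Hepatocyte markers were above it (0.29 to 0.99, 1 of 6 called higher). Bile duct, neutrophil and lymphocyte markers lay on both sides. The part of these cells in the lower ratios was not tested. Fos was not well above background in any sample. Calls of higher or lower needed a limma adjusted p under 0.05 together with a 2-fold ratio or more. With each gene taken at its brightest tested probe, 9 of the 10 genes were tested, and 0 were called higher, against 0.865% of all 14912 genes tested. Likewise 0 were called lower, against 0.416% of all genes. Without the 2-fold limit, Dusp1 and Ccn1 were below the reference, 2 of 9 against 12.8% of all genes, and 0 were above, against 14.2%. The median log2 ratio of the 9 genes was -0.11, beside -0.02 over all genes, and all 9 means were below 0, as were 53.2% of all genes. Without liver 3 that count was 7 of 9, since the means of Egr1 and Ier2 became 0.22 and 0.09.

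**Figure D1:**
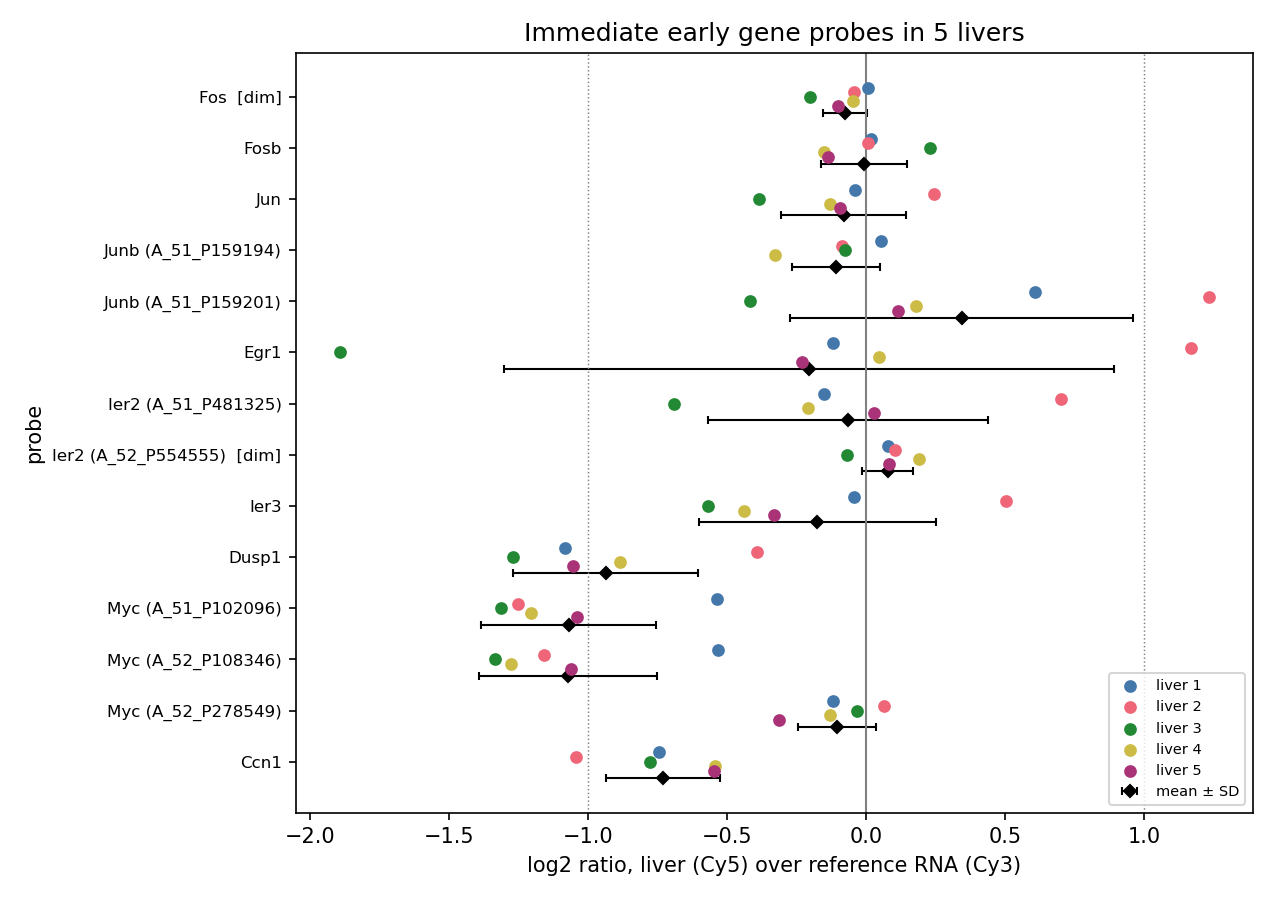
Log2 ratio of liver over reference RNA (horizontal axis) for all 14 probes of the 10 genes, with a coloured point for each of the 5 livers and a black diamond with bars for the mean and SD. Dotted lines mark 2-fold, and probes marked dim were not tested. Egr1 ran from -1.89 in liver 3 to 1.17 in liver 2, while Ccn1, Dusp1 and 2 Myc probes lay below 0 in every liver.

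The AP-1 subunits are leucine zipper proteins that bind DNA as dimers, FOS and FOSB only together with a JUN protein. The Fos probe was spotted 10 times on each array. Its background-subtracted signal was 7.1, 15.3, 4.8, 11.5 and 10.9 in livers 1 to 5, and between 5.2 and 19.5 in the reference. It was well above background in 0 of 5 arrays in each channel, so Fos was not tested, and its ratios, plotted as dim, carry no reading. Fosb was faint but measured on every array, with a liver signal between 38.0 and 135. Its log2 ratios were 0.02, 0.01, 0.23, -0.15 and -0.14 in livers 1 to 5, with a mean of -0.01 ± 0.15 (SD, n = 5) and a limma adjusted p of 0.948. The Fosb values thus lay on both sides of the reference with little spread, though the SD was 0.31 with Agilent's processed signals.

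Jun, the main dimer partner in AP-1, was near the detection limit, with a liver signal between 13.2 and 63.7, and was well above background in 4 livers and in the reference on 3 arrays. Its log2 ratios in livers 1 to 5 were -0.04, 0.24, -0.38, -0.13 and -0.10. The mean was -0.08 ± 0.22 (SD, n = 5, limma adjusted p = 0.484), and -0.43 ± 0.83 with Agilent's processed signals (0.291). The probe was spotted 10 times, and the SD between spots of an array was 0.06 to 0.14, which does not hold the variation between arrays. Jun was highest in liver 2 and lowest in liver 3.

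Junb, an AP-1 subunit that can oppose Jun, had 2 probes that differed. On probe A_51_P159201 the liver signals were 759, 2222, 765, 875 and 804 in livers 1 to 5, and the reference signals were 490, 940, 862, 961 and 1037. The log2 ratios were 0.61, 1.23, -0.42, 0.18 and 0.12. Liver 2 was highest and liver 3 was the only value below 0, a 3.14-fold distance between the extremes. The mean was 0.34 ± 0.62 (SD, n = 5), with a limma adjusted p of 0.244 over all probes. On probe A_51_P159194, the brighter of the 2 and so the one that stood for the gene, the ratios were 0.05, -0.09, -0.08 and -0.33 in livers 1 to 4, and the spot of liver 5 was left out as an outlier. Its mean was -0.11 ± 0.16 (SD, n = 4, limma adjusted p = 0.389). The difference between the probes averaged 0.51 ± 0.68 over 4 livers, and an exact two-sided sign-flip permutation test gave p = 0.25, where 0.125 is the smallest p possible (0.333 adjusted over 4 probe comparisons). Which probe measures Junb was not tested, because the files used here give no probe sequence.

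**Figure D2:**
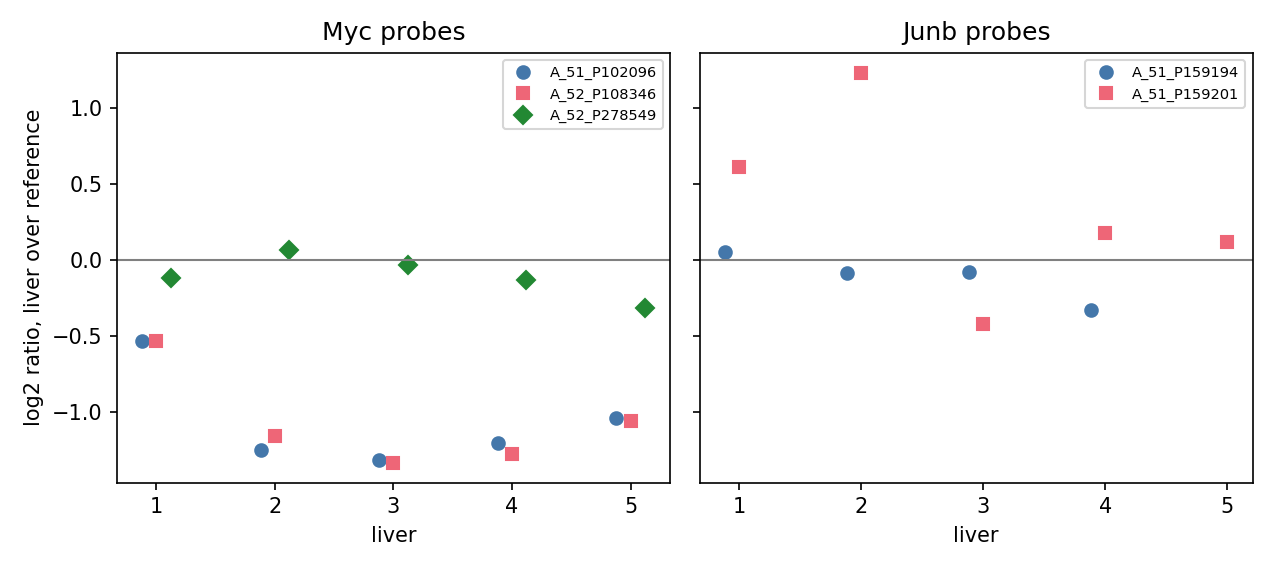
Log2 ratio of liver over reference (vertical axis) in each liver for the 3 probes of Myc (left) and the 2 probes of Junb (right), offset sideways for legibility. Myc probes A_51_P102096 and A_52_P108346 coincide between -0.53 and -1.34 while A_52_P278549 stays between -0.31 and 0.06, and only 1 of the Junb probes reaches 1.23 in liver 2.

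Egr1 encodes a growth and stress response transcription factor, and in the main setting it had the widest spread of the 10 genes. With Agilent's processed signals its SD was 1.28, below the 1.605 of the dim Ier3 probe. Its liver signals were 291, 1057, 142, 554 and 400.3 in livers 1 to 5, against 282, 457, 560.3, 658 and 654 in the reference. The log2 ratios were -0.12, 1.17, -1.89, 0.05 and -0.23. Liver 2 stood far above and liver 3 far below the other 3 livers, which were near the reference, and the extremes were 8.36-fold apart. The mean was -0.21 ± 1.10 (SD, n = 5), with a limma adjusted p of 0.727.

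IER2 is a small nuclear protein named for its immediate early response. On its brighter probe, A_51_P481325, the liver signals were 343, 987, 530.3, 689 and 732 in livers 1 to 5, and the log2 ratios were -0.15, 0.70, -0.69, -0.21 and 0.03. The order had liver 2 highest and liver 3 lowest again, 2.62-fold apart, around a mean of -0.07 ± 0.50 (SD, n = 5, limma adjusted p = 0.802). The other Ier2 probe, A_52_P554555, was well above background in 2 livers and on 1 array in the reference and was not tested. Ier3, a stress-inducible survival gene, was well above background in 2 livers and, in the reference, on 2 arrays. Its liver signals were 14.6, 89.8, 9.9, 5.6 and 7.2 in livers 1 to 5, while the reference stayed between 18.9 and 38.3. Liver 2 was the only liver in which Ier3 was brighter than the reference, with log2 ratios of -0.04, 0.50, -0.57, -0.44 and -0.33 and a mean of -0.18 ± 0.43 (SD, n = 5, limma adjusted p = 0.410). With Agilent's processed signals, which add no offset, the mean was -1.30 ± 1.605 and did not pass either (limma adjusted p = 0.1204).

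Dusp1 encodes a nuclear phosphatase that switches MAP kinases off again and is itself an immediate early gene. Its liver signals were 50.4, 292, 189, 159 and 108 in livers 1 to 5, below the reference on every array, at 155, 392, 406, 399.9 and 417. The log2 ratios were -1.08, -0.39, -1.27, -0.89 and -1.06. Liver 2 was the least low and liver 3 the lowest. The mean was -0.94 ± 0.33 (SD, n = 5, SE 0.12), or 1.92-fold lower, with a limma adjusted p of 0.00181, just short of 2-fold. Without liver 2, the least low value, the mean was necessarily lower, at -1.07 (limma adjusted p = 0.00195), and Dusp1 was called lower.

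Ccn1 encodes a secreted matricellular protein and is a target of the serum response factor and of YAP. Its liver signals were 41.9, 28.6, 75.8, 75.7 and 60.3 in livers 1 to 5, and its reference signals were 102, 136, 138, 166 and 166. The log2 ratios were -0.74, -1.04, -0.78, -0.54 and -0.55, below 0 in all 5 livers, with liver 2 the lowest. The mean was -0.73 ± 0.21 (SD, n = 5, SE 0.08), or 1.66-fold lower, with a limma adjusted p of 0.00115. Ccn1 was faint, though like Dusp1 it was well above background on every array. The offset of 50 added to each signal draws ratios of low signals towards 0. With Agilent's processed signals, which have no such offset, Ccn1 was at -1.56 ± 0.60 and Dusp1 at -1.32 ± 0.46 (SD, n = 5). Both were called lower (limma adjusted p = 0.00161 and 0.00113). The authors' deposited table holds nearly the same ratios as the processed signals, so its means of -1.56 for Ccn1 and -1.32 for Dusp1 are no separate measurement.

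Myc encodes a growth-promoting transcription factor that acts with MAX. Probe A_51_P102096, spotted 10 times, had liver signals of 40.0, 85.0, 104, 81.0 and 84.8 and reference signals of 83.9, 269, 278, 300.3 and 358 in livers 1 to 5. Its log2 ratios were -0.54, -1.25, -1.31, -1.21 and -1.04. Probe A_52_P108346 gave -0.53, -1.16, -1.34, -1.28 and -1.06, within 0.093 of the other probe in every liver. Both means were -1.07 ± 0.32 (SD, n = 5), or 2.10-fold lower, and both probes were called lower when all 31861 tested probes were fitted singly (limma adjusted p = 0.000559 and 0.000586), against 0.32% of all tested probes. The third probe, A_52_P278549, had ratios of -0.12, 0.06, -0.03, -0.13 and -0.31, with a mean of -0.11 ± 0.14 (SD, n = 5, limma adjusted p = 0.322).

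The brightest Myc probe stood for the gene, so the gene as a whole was not called, although the 2 agreeing probes were. With the 3 probes averaged Myc was at -0.75 and below the reference at an adjusted p of 0.00164. In every liver both lower probes were below the third one, by a mean of -0.96 and -0.97. The exact two-sided sign-flip permutation test gave p = 0.0625 for each, the smallest p that 5 livers allow (0.125 adjusted over 4 probe comparisons). In the fits of single probes with 5 other choices of values and with each liver left out in turn, the 2 lower probes kept means between -1.01 and -1.67 and were called lower in 11 of 11 fits, the main setting included. Of the 5 choices, processed signals and deposited ratios hold nearly the same values. Which transcripts or sequences the third probe detects was not tested.

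Both dye channels were then looked at separately, since the reference was the same RNA on every array and its spread carries no difference between livers. After normalization of channels between arrays, Egr1 had an SD of 1.00 (log2) over livers in the liver channel and 0.17 in the reference channel. For Junb probe A_51_P159201 these were 0.64 and 0.13, for Ier3 0.44 and 0.05, for Dusp1 0.48 and 0.25 and for Ier2 0.48 and 0.28. The median over 24008 probes was 0.22 in the liver channel and 0.16 in the reference channel. The SD of these 5 genes was thus larger in the liver channel. For Dusp1 both channels were lowest on array 1, at 7.11 and 8.19, so part of its spread was shared by the channels. Ier3 was well above background in only 2 livers. Myc probe A_51_P102096 differed, with 0.15 in the liver channel and 0.37 in the reference channel, where array 1 stood at 7.56 and the other arrays between 8.36 and 8.44. The smaller Myc difference in liver 1 thus went with a dimmer reference spot on that array, and its origin was not tested. Both channels of Junb probe A_51_P159194 moved together, at 0.49 and 0.50.

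**Figure D3:**
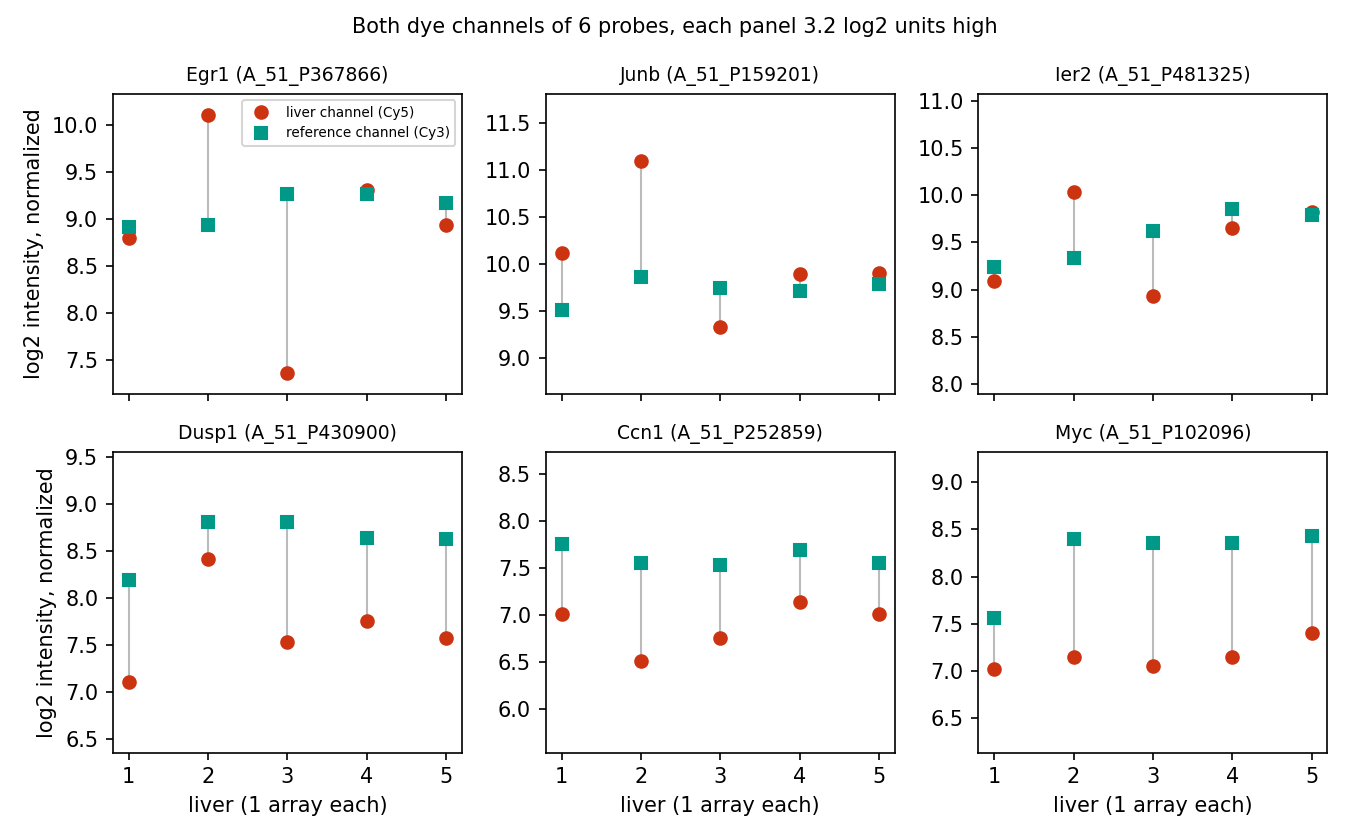
Normalized log2 intensity (vertical axis) of the liver channel (red circles) and the reference channel (green squares) on the array of each liver, joined by a grey line, for 6 probes with panels of equal height. Egr1, Junb and Ier2 have a high liver value in liver 2 and a low value in liver 3, whereas the reference value of Myc is low on array 1.

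The order of the livers recurred across several of the 10 genes. Of the 7 genes with both dyes well above background throughout, taken at their brightest such probe, 5 were highest in liver 2 (Junb, Egr1, Ier2, Dusp1 and Myc). Liver 2 was highest for 23.3% of all 12451 genes measured that way. Liver 3 was lowest for 4 of the 7 (the same without Myc), against 18.2% of all genes, and the same 4 had both extremes, against 6.16%. Myc is counted here by probe A_52_P278549, and its 2 lower probes were highest in liver 1. Junb is counted by A_51_P159201, and its brighter probe, without a value in liver 5, was highest in liver 1 and lowest in liver 4. Jun and Ier3, outside the 7 because they were dim on some arrays, had the same order. Averaged over the 7 genes, the difference from each gene's own mean was 0.02, 0.49, -0.45, 0.0016 and -0.06 in livers 1 to 5. Egr1, with the largest SD of the 7 (1.10), weighs most in this average. Ccn1 ran the other way in liver 2, where it was lowest, and Fosb was highest in liver 3. These orders are described without a test, since the contrast of livers 2 and 3 was already known in these data.

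The spread between livers was tested as each gene's variance against the variance usual at its brightness. The SD was 1.10 for Egr1, 0.62 for Junb and 0.50 for Ier2, where 0.21, 0.20 and 0.20 are usual, and 33 of 12451 genes had an SD at least as large as Egr1. After Benjamini-Hochberg adjustment 0 of the 7 genes passed this F test on limma's prior variance (adjusted p = 0.456 for Egr1 and 0.856 for Ier2, with Junb between them), as did 0% of all genes. Because no gene at all passed, this result does not show that the spread of the 7 genes is ordinary. At an unadjusted p below 0.05 Egr1, Junb and Ier2 passed, against 5.58% of all genes. Without liver 2, only Egr1 did. Ier2 did not pass without liver 3, with median centring or with arrays scaled to each other. The Junb result rests on the probe: with outlier spots kept or without liver 5 its brighter probe entered, the SD was 0.14 and 0.16, and Junb did not pass. With median centring in place of loess, Egr1 passed after adjustment (0.00041), as did 226 genes in all.

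Cell type markers also differed between the livers. The neutrophil list, with 6 of 7 markers tested, had a mean log2 ratio of -0.05, 0.64, -0.14, -0.02 and -0.22 in livers 1 to 5, and its summed liver signal ran from 1820 to 4476. Lymphocyte markers, 7 of 7 tested, were highest in liver 2 as well, at 0.38 against -0.22, 0.08, 0.01 and -0.32 in livers 1, 3, 4 and 5, with a summed signal from 2559 to 7871. Both sums are raw signals, not normalized between arrays, while the liver-channel median of an array ran from 72.7 to 161. They are therefore no measure of a difference between livers. Of the 6 neutrophil markers 5, and of the 7 lymphocyte markers 6, were well above background in every liver. Kupffer cell markers were at -0.47, -0.13, -0.49, -0.13 and -0.39, and hepatocyte markers were lowest in liver 3, at 0.29. Stellate cell markers were lowest in liver 2, as Ccn1 was, at -0.50 against -0.23 to -0.11 in the others. Red blood cell markers were lowest in liver 1, at -1.22 against -0.56 to -0.41. The 2 lower Myc probes were least low there too. For A_51_P102096 that went with the reference channel of array 1, at 7.56 against 8.36 to 8.44. Its liver channel was at 7.02 there, against 7.05 to 7.40 in the other livers. Endothelial markers stayed between -0.42 and -0.18, and bile duct markers between -0.33 and 0.06. The part of these cells in the immediate early gene ratios was not tested.

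By the root mean square difference of profiles centred on their own mean, over the 5 livers, the genes most like the mean of the 7 were Garem1, Olfr800, Jund, Tle3 and Sh3bp2. Their differences lay between 0.018 and 0.060 (log2). Jund, the AP-1 subunit that is usually present without stimulation, had ratios of 0.11, 0.63, -0.32, 0.10 and 0.17 in livers 1 to 5. The gene nearest to Egr1 was Serpina3n, an acute phase antiprotease, at 0.366, with 1.65 in liver 2 and -1.16 in liver 3. Nearest to Ier2 was Irak3, an inhibitor of interleukin-1 receptor signalling, at 0.101, with 0.77 in liver 2 and -0.48 in liver 3. Slc43a1 (0.068) was nearest to Junb, Sh3bp2 (0.050) to Dusp1, Wdr53 (0.021) to Ccn1, Arvcf (0.010) to Fosb and Calca (0.011) to the third Myc probe. The measure favours genes of similar amplitude, so small values for Fosb, Myc and Ccn1 follow from their narrow spread in the main setting. With processed signals the SD was larger, at 0.60 for Ccn1 and 0.31 for Fosb.

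RefSeq promoter sequences (assembly GRCm38.p6) were matched by symbol for 7 of the 10 genes. The 250 bases before the start are shown for 3 of the genes that were highest in liver 2 and lowest in liver 3, and for Ccn1, which was lowest in liver 2, so that the regions can be compared. Capitals mark a match to any of 6 motifs searched on both strands: the CArG box of the serum response factor, the cyclic AMP response element TGACGTCA, the AP-1 site TGACTCA, the EGR site GCGTGGGCG, the TATA box TATAAA and the CCAAT box CCAAT.

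Junb (chr8:84978749-84978998, minus strand): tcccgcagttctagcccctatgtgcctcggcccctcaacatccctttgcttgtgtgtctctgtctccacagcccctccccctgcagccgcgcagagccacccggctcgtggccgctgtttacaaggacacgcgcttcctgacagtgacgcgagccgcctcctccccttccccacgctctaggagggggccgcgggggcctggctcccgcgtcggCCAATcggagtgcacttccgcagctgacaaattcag

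Ier3 (chr17:35821463-35821712, plus strand): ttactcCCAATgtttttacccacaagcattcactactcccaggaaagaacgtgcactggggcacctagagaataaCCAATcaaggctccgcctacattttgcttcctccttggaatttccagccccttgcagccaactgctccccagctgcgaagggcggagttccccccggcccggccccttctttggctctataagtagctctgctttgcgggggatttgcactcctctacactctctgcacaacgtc

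Dusp1 (chr17:26508473-26508722, minus strand): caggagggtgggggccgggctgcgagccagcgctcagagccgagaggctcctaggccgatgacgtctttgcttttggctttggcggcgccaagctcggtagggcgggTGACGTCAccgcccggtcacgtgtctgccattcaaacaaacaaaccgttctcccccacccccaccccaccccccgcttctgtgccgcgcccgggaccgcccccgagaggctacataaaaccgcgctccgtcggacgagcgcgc

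Ccn1 (chr3:145649986-145650235, minus strand): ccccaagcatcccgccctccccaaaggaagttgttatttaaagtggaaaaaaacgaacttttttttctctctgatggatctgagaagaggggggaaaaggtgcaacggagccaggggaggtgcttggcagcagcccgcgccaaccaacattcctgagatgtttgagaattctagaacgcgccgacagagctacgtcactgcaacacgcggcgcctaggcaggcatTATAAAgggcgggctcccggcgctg

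Dusp1 held the cyclic AMP response element, 143 to 136 bases before the start, a motif found in 1.55% of 32851 RefSeq promoter windows of this length. CCAAT boxes were in Junb, in Ier3 at 2 places and in Jun, against 33.8% of windows, and TATA boxes were in Ccn1 and Fos, against 12.4%. The CArG box (1.47% of windows), the AP-1 site (4.46%) and the EGR site (0.536%) had 0 matches in the 7 promoters. These are matches of letters in a short window, and elements farther upstream or of other spelling were not searched. Of the genes with liver 2 highest and liver 3 lowest, 4 had a promoter entry, and CCAAT was in Jun, Junb and Ier3 but not in Dusp1.

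Genes around the programme were taken from 8 lists, of which 103 of 115 genes were tested. Of these 2 were called higher, Creb1 and Mycl, against 0.865% of all genes, and 0 lower, against 0.416%. Without the 2-fold limit 14 of the 103 were above and 11 below the reference, near the 14.2% and 12.8% of all genes. The counts above and below given for each list stand beside these same shares. The list medians lay between -0.13 and 0.09.

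Among 17 tested immediate early transcription factors outside the 10 genes, 2 were above and 2 below the reference. Nr4a1, an orphan nuclear receptor, was at 0.56 ± 0.11 (SD, n = 5, limma adjusted p = 0.00208), and Egr4, well above background in both dyes on 1 array, was at 0.34 ± 0.20 (adjusted p = 0.0128), and at 1.35, called higher, with processed signals. Nr4a1 lay between 0.43 and 0.69 in all 5 livers and did not have the order of Egr1. Klf6, at -0.51 ± 0.72, and Cebpb, at -0.45 ± 0.63, a liver acute phase regulator, did not pass (0.181 and 0.174). Both were highest in liver 2, at 0.67 and 0.62, and lowest in liver 3, at -1.27 and -0.93. Without liver 2, both were below the reference (-0.81 and -0.71, limma adjusted p = 0.00959 and 0.00665). Leaving out the highest value lowers a mean in any case, so that fit is no separate support. In this list 4 of the 12 genes measured on all arrays were highest in liver 2 and lowest in liver 3, against 6.16% of all genes.

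Of 18 other immediate early effectors 3 were below the reference and 0 above. Btg2, an antiproliferative gene, was not among these 3, with a mean of -0.63 (limma adjusted p = 0.253), or -0.38 with probes averaged (0.470). Its ratios were -0.28, 0.91, -1.86, -1.18 and -0.75 in livers 1 to 5, an SD of 1.04, close to that of Egr1. Plk3, a stress-activated polo-like kinase, was at 0.50 in liver 2 and between -1.21 and -0.80 in the others, with a mean of -0.70 ± 0.69 (SD, n = 5, limma adjusted p = 0.0765). Without liver 2, Plk3 was at -0.999 (limma adjusted p = 0.00247) and Btg2 was called lower at -1.02 (0.0229). Liver 2 held the highest value of both, so these lower means follow from the liver left out. Ier5 (0.28 ± 0.41) and Ptgs2 (0.19 ± 0.20) were the highest and did not pass (limma adjusted p = 0.172 and 0.0846). Ptgs2, dim on most arrays, passed with median centring (0.0352), without liver 1 (0.0287) and with the deposited ratios, where it was called higher at 1.02 (limma adjusted p = 0.0493). In this list 7 of the 14 genes measured on all arrays had the order with liver 2 highest and liver 3 lowest, against the 6.16% of all genes.

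**Figure D4:**
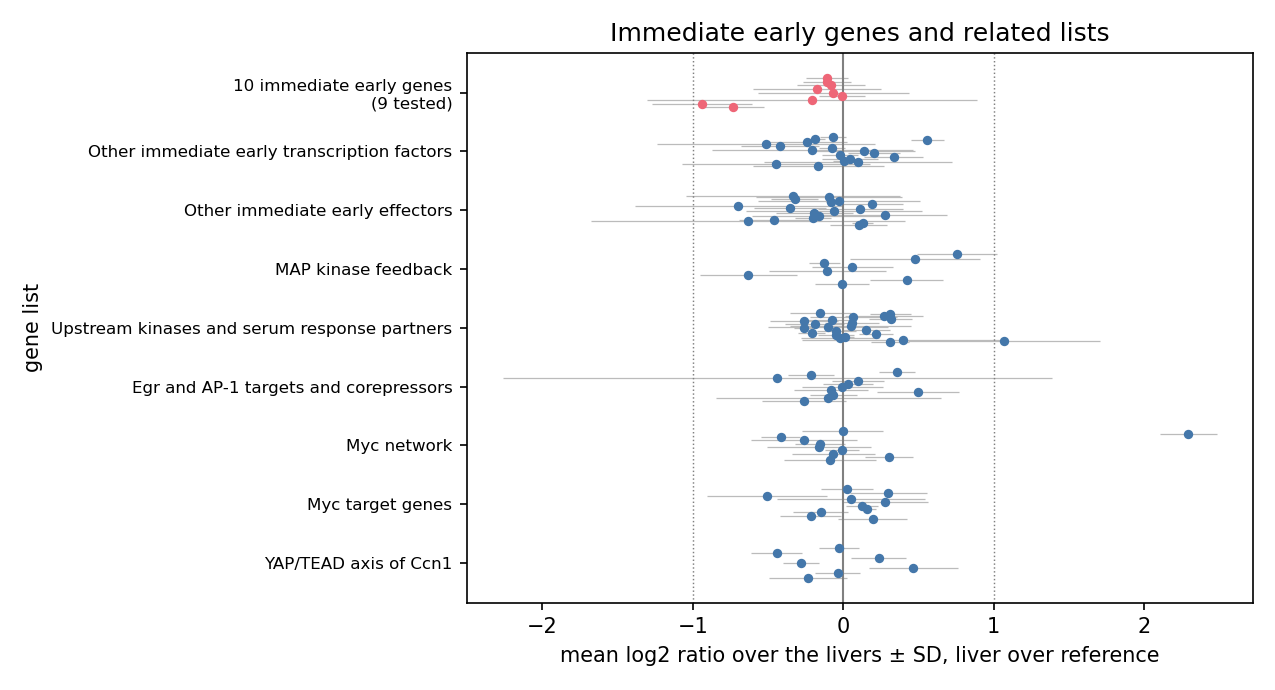
Mean log2 ratio of liver over reference with SD over the livers (horizontal axis) for each tested gene of the 10 immediate early genes (red) and of 8 related lists (blue), by list on the vertical axis, with 2-fold as dotted lines. Most means lie within 2-fold of the reference, while Mycl at 2.29 and Creb1 at 1.07 stand to the right.

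MAP kinase feedback inhibitors pointed both ways. Of 8 tested 3 were above and 1 was below the reference. Spry4, a receptor tyrosine kinase antagonist, was at 0.76 ± 0.27 (SD, n = 5, limma adjusted p = 0.00208), and Spry1 at 0.48 ± 0.43 (adjusted p = 0.0431). Spry4 was at 0.30 with probes averaged and at 1.18, called higher, with processed signals. Dusp4, a phosphatase of the same family as Dusp1, was at -0.63 ± 0.32 (adjusted p = 0.00637), and Spred2 at -0.13 ± 0.10 did not pass (adjusted p = 0.162). With processed signals Dusp4 was called lower, at -1.08. Spry1 did not pass with liver 2, 3, 4 or 5 left out (limma adjusted p = 0.0699, 0.123, 0.133 and 0.092). In this list 0 of 8 genes were both highest in liver 2 and lowest in liver 3, against 6.16% of all genes.

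Among 22 upstream kinases and serum response partners, 4 were above and 1 was below the reference. Creb1, which encodes the cyclic AMP response element binding protein, was at 1.07 ± 0.64 (SD, n = 5, limma adjusted p = 0.0139). Its other 2 tested probes were at -0.10 and 0.13, and its mean fell under 2-fold, still above the reference, with probes averaged (0.37), with median centring (0.98) and without liver 2, 3 or 4 (0.999, 0.96 and 0.92). Egfr had the largest SD, with 1.29 in liver 2 and -0.36 in liver 4 around a mean of 0.39 ± 0.67 (limma adjusted p = 0.254). Map2k7 was lowest, at -0.26 ± 0.06 (adjusted p = 0.0255), followed by Mapk3 at -0.26 ± 0.23 (0.0715). Map2k7 did not pass with any of the 5 livers left out (limma adjusted p between 0.0516 and 0.0889).

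Of 11 EGR and AP-1 targets and corepressors 2 were above the reference, Mmp9 at 0.50 ± 0.27 and Timp1 at 0.36 ± 0.12 (SD, n = 5, limma adjusted p = 0.0112 for each). Timp1 did not pass at 0.08 with probes averaged or at 0.23 with median centring (limma adjusted p = 0.444 and 0.213). F3, the tissue factor gene, was at -0.26 ± 0.28 (limma adjusted p = 0.0933).

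In the Myc network 2 of 10 genes were above and 1 was below the reference. Mycl, a Myc paralog, was called higher, at 2.10, 2.43, 2.42, 2.44 and 2.07 in livers 1 to 5, in a direction opposite to the 2 lower Myc probes. It had no other probe. Mxi1, a MAX-binding antagonist of Myc, was at -0.42 ± 0.13 (SD, n = 5, limma adjusted p = 0.0061), Mxd4 at -0.26 ± 0.35 (0.156) and Mga at 0.30 ± 0.16 (0.025). Mga stood at -0.19 with its probes averaged, and it did not pass without liver 1, 2, 3 or 4 (limma adjusted p = 0.067, 0.0511, 0.0802 and 0.0724). Of 10 tested Myc target genes 1 was below the reference, Npm1, a nucleolar protein gene, at -0.51 ± 0.40 (limma adjusted p = 0.0276). Npm1 did not pass without liver 1, 2 or 4 (0.0706, 0.0765 and 0.0923) or with probes averaged (-0.33, limma adjusted p = 0.066). Odc1 at 0.30 ± 0.25 and Nme1 at 0.28 ± 0.29 were highest and Cdk4 at -0.22 ± 0.20 was next to lowest (limma adjusted p = 0.0552, 0.0889 and 0.106). Nop58, at 0.05 ± 0.49, had the largest SD of the targets.

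Of 7 tested genes of the YAP and TEAD axis, a known input to Ccn1, 1 was above and 2 were below the reference. The part of this axis in the Ccn1 ratios was not tested. Wwtr1, which encodes the YAP paralog TAZ, was at -0.44 ± 0.17 and Tead3 at -0.28 ± 0.12 (SD, n = 5, limma adjusted p = 0.00723 and 0.0247), the same direction as Ccn1. Tead2, at 0.47 ± 0.29 (SD, n = 4, limma adjusted p = 0.0267), was above, and Tead4, at 0.23 ± 0.19, did not pass (0.0621). With some livers left out neither Tead2 nor Tead3 passed. For Tead3 this was without liver 1, 3 or 4 (limma adjusted p = 0.0501, 0.0834 and 0.072). For Tead2 it was without liver 2, 3 or 4 (0.0597, 0.0636 and 0.0756) and with median centring (0.0753). With processed signals Tead3 was at -0.46, and with probes averaged Wwtr1 was at -0.26.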

How the data were processed

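Per the file headers, each of 5 arrays was read by the authors with Agilent's Feature Extraction software (version 11.5.1.1), giving for every spot a median intensity, a local background, background-subtracted and dye-normalized (processed) signals, and a log10 ratio (Cy5 over Cy3). A deposited table adds log2 ratios, of which 99.7% equalled those of the processed signals to within 0.001, which gives its scale and direction, and column medians between -0.10 and -0.03 show no centring. How its probes were selected is unknown here.

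Background was corrected with normexp (offset 50) and arrays were normalized by loess (limma 3.58.1, R 4.3.3). Controls and outlier spots (2.32% to 4.05%) had weight 0 and were left out, and spots of a probe were averaged. No spot was saturated. Of 41174 probes, 24375 were named through RefSeq accessions in a table of GRCm38.p6 and 16799 were not. A probe was tested if 3 or more arrays had it well above background for either dye. Mean log2 ratios were tested against 0 over 14912 genes (limma, intercept only, trend and robust prior, two-sided, Benjamini-Hochberg), which leaves out the reference RNA's own spread and any dye effect of a probe. Spread was tested over 12451 genes with values well above background throughout. The fits were also run on simulated data, whose outcome is not reported here and is not used as support. Channel values used Aquantile normalization. Alternatives changed the signals, normalization, filter, probe rule, outliers and prior, and left out each liver.

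The members and lists were chosen with earlier results of these data known. Genes named are all 10 members, in each list the 2 top and 2 bottom means and the largest SD, and the genes most alike in profile. Clone and predicted names were skipped. Jund was named by likeness. For 1 gene that this rule names, results are not reported here.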

Additional observations from a re-analysis of the deposited data

Results flagged for a closer look

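Plk3, an immediate early polo-like kinase, was at a log2 ratio of 0.50 in liver 2, and the distance to the next liver was 0.76 of the whole range over the 5 livers. It was the 1 value of 45 gene and probe profiles tested that stood apart in this way, where chance marks about 5% of groups. The cause was not tested.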

How the results depend on the processing

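The count of immediate early genes called at 2-fold was 0 and became 2 (Ccn1 and Dusp1) both in the deposited ratios and with processed signals, and 1 (Myc) with all probes fitted singly. With a liver left out it ranged from 0 to 1. The deposited ratios are nearly the values of the processed signals, so they are not a separate alternative. The count without the 2-fold limit stayed between 2 and 3, and none stood above the reference in any alternative. The count with a spread above the prior was 0 and became 1 (Egr1) with median centring. Of the related genes 2 were called, with 5 under processed signals, 6 in the deposited ratios, 1 with median centring, 1 with probes averaged and 1 to 2 with a liver left out. Mga changed from 0.30 to -0.19 with probes averaged. The causes were not tested. Processed signals lack the offset that draws dim ratios towards 0, but they also differ in background subtraction and dye normalization. No alternative changed the offset alone, so these cannot be told apart. For the mean ratio of single members, 121 of 122 alternative values stayed on the same side of an adjusted p of 0.05, whatever the fold, and Myc with probes averaged crossed it. No paired analysis was possible because all samples form 1 group. A slide or scan block could not be fitted, since each array lay on a slide of its own. Signal over background limits Fos, Jun, Ier3 and the dimmer Ier2 probe.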
